A study of Mus musculus with 2 samples.

Results

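The 10 genes described here are the Runx transcription factors Runx1, Runx2 and Runx3, their shared partner Cbfb, the bone transcription factor Sp7, and 5 genes of early bone matrix and mineral, Alpl, Ibsp, Spp1, Bglap and Sparc. They were chosen by name, as the rows whose Ensembl gene ID carries one of these symbols, and all 10 were found among the 43346 mouse gene IDs of the tables. The rule that finds them uses names and no measured value. The set itself, and the gene lists and pairs used below, were chosen with earlier results of these data known. The label of the set speaks of early bone genes. Of the 10, 8 had at least 1 TPM (a level per transcript length, explained below) in each library. The same held for 61.8% of protein-coding genes, or 80.3% of those with at least 3 expected counts in either library. Ibsp and Bglap, which mark later bone cells, did not reach 1 TPM.

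The study sequenced RNA from the facial prominences of healthy B6NCrl mouse embryos at embryonic day 12.5, when the swellings that form the jaws and the middle of the face have taken shape. The assay is named total RNA-seq. There is 1 group of 2 libraries, replicate 1 from a pool of 120 embryos and replicate 2 from a pool of 88 embryos, each pool holding both sexes. With no second condition the data give levels, orders and ratios and no contrast. Even 2 groups of 2 libraries would allow no p-value under 0.33 in an exact two-sided permutation test, so none is given. A value with ± is the mean and SD of both libraries (n = 2), and the SD covers the spread between these pools only.

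Runx proteins bind DNA through a shared domain and need Cbfb, which does not touch DNA itself, to bind tightly. Runx2 is required for osteoblasts to form, Sp7 acts after it in the same lineage, and the matrix genes follow as the cells mature, with osteocalcin (Bglap) among the last. Runx1 is best known from blood formation and Runx3 from sensory neurons and T cells. Each Runx gene has a distal promoter (P1) and a proximal promoter (P2) whose transcripts begin their coding sequence differently, and the Runx2 P1 form is the one tied to bone.

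The coding starts show what sets the promoter forms apart. These are the first 45 coding bases of the most abundant coding transcript from each promoter, in the mm10 annotation and on the transcript strand, with capitals where all 3 genes have the same base.
Runx1-201 (P1): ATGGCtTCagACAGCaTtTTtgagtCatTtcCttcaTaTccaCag
Runx2-202 (P1): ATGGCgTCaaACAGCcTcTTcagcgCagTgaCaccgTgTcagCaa
Runx3-201 (P1): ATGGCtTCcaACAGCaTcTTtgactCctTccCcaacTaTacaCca
Runx1-202 (P2): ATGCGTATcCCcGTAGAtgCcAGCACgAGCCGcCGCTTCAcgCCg
Runx2-203 (P2): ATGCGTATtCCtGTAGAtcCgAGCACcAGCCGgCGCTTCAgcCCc
Runx3-202 (P2): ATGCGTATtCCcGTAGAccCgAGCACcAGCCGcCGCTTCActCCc
The 3 genes shared 21 of the 45 bases in the P1 form and 35 of the 45 in the P2 form. Over the whole P2 coding sequence the identity at aligned bases, gaps left out, was 74.4% between Runx1 and Runx2, 75.9% between Runx2 and Runx3 and 76.4% between Runx1 and Runx3. The longest stretch shared exactly by any pair had 38 bases, between Runx1 and Runx3, and no stretch of 50 bases was shared.
Runx1 and Runx3, shared: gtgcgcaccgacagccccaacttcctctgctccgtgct

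The regions around the P1 starts of all 3 Runx genes also carry the Runx motif itself. The motif searched was ACCACA on both strands (TGTGGT on the other) in windows of 250 bases before to 50 bases after each RefSeq start (GRCm38.p6), and the repeat searched was 2 copies in the same direction with 2 bases between them. A copy of ACCACA lay in 5506 of 32851 windows (16.8%), and the repeat in 7 (0.021%). The P1 windows of Runx1, Runx2 and Runx3 were 3 of these 7. They are printed on each gene's own strand with the motif in capitals, from chr16:92826025-92826054 (minus strand) for Runx1, chr17:44814583-44814612 (minus) for Runx2 and chr4:135120503-135120532 (plus) for Runx3.
Runx1 P1: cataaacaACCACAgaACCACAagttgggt
Runx2 P1: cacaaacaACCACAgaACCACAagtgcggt
Runx3 P1: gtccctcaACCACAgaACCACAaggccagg
The repeat began 28 bases after the RefSeq start in Runx1 and 23 bases after it in Runx2, and its copies stood at -134 and -126 in Runx3. The Runx2 window held a further copy of the motif at -80. Runx1-201 and Runx2-202 start further upstream in the mm10 annotation, at chr16:92826149 and chr17:44814797, so the repeat lies downstream of their starts too. The P2 windows of Runx1 and Runx3 held no ACCACA, and a P2 window of Runx2 was not used here. A match is a description of the letters and does not show binding.

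The same motif is the textbook entry point of Runx2 into bone genes, since the osteocalcin promoter element through which Runx2 was recognised as an osteoblast factor contains it. Among the 13 windows of 9 of the 10 genes, 6 held at least 1 copy, beside 16.8% of all windows. Of these 6, 3 were the Runx P1 windows described above. Outside the Runx genes a copy lay in the windows of Bglap, of Spp1 at its upstream start and of Sparc, where the copy stood at +35. Alpl, Cbfb and Ibsp had none, and a window of Sp7 was not used here. The 250 bases before the start are shown for Bglap (chr3:88384467-88384716, minus strand) and Spp1 (chr5:104434861-104435110, plus strand), which carry a copy at about the same distance, -132 and -128. Whether the motif goes with level was not tested.
Bglap: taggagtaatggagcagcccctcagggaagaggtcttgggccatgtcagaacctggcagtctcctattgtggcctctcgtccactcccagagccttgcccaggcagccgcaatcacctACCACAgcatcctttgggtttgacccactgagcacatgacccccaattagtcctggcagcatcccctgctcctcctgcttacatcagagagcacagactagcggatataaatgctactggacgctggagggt
Spp1: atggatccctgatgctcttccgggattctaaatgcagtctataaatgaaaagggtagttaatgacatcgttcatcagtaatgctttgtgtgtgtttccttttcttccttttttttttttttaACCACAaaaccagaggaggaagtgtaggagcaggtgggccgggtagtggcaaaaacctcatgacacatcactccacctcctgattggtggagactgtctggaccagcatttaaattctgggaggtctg

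Runx2 was the highest of the 3 Runx factors. TPM, the unit used throughout, divides a count by transcript length and scales each library to the same total, so that levels of different genes can be set side by side. Runx2 (ENSMUSG00000039153, chr17:44495987-44814797, minus strand) had 25.8 TPM in replicate 1 and 26.2 TPM in replicate 2, from 1448 and 2071 expected counts. Its mean of 26.0 ± 0.24 TPM lay above 72.8% of protein-coding genes. In tissue pools like these, fewer cells of a type and less RNA per cell cannot be told apart.

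Runx1 (chr16:92601466-92826149, minus strand) had 12.7 TPM in replicate 1 and 10.9 TPM in replicate 2, a mean of 11.8 ± 1.32 TPM, with 958 and 1256 expected counts. It was the member that differed most between the libraries among those of 10 TPM or more, 0.21 higher in replicate 1 than in replicate 2 on the log2 scale with a pseudocount of 1 TPM. Runx3 (chr4:135120652-135177990, plus strand) had 1.09 and 1.06 TPM from 71 and 98 expected counts, close to the 1 TPM limit used here for a gene to be called present. In replicate 1 the 95% Poisson interval of its count ran from 0.851 to 1.37 TPM, and in replicate 2 from 0.861 to 1.29 TPM, so that counting alone leaves it on either side of that limit. Such intervals cover counting error only.

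The ratio of the 3 factors held in both libraries. A ratio is called here when the mean of its log2 values lies beyond 1 in either direction and both libraries have its sign. Runx2 was 2.21-fold above Runx1 (log2 ratio 1.14 ± 0.18) and 24.2-fold above Runx3 (4.60 ± 0.04), and Runx1 was 10.9-fold above Runx3 (3.45 ± 0.13). The ratio of Runx2 over Runx1 fell short of the threshold in counts not divided by length (0.66). In the deposited posterior mean TPM, where Runx3 averages 1.96 TPM, the log2 ratio over Runx3 was 3.75 for Runx2 and 2.62 for Runx1, still called.

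Cbfb (chr8:105170674-105217989, plus strand) was more abundant than all 3 of its partners together. It had 99.2 TPM in replicate 1 and 103 TPM in replicate 2, above 92.5% of protein-coding genes. The summed TPM of Runx1, Runx2 and Runx3 was 39.7 in replicate 1 and 38.1 in replicate 2, so Cbfb stood 2.6-fold above the sum (1.38 ± 0.08). In counts not divided by length the same ratio was 0.91, under the threshold.

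**Figure D1:**
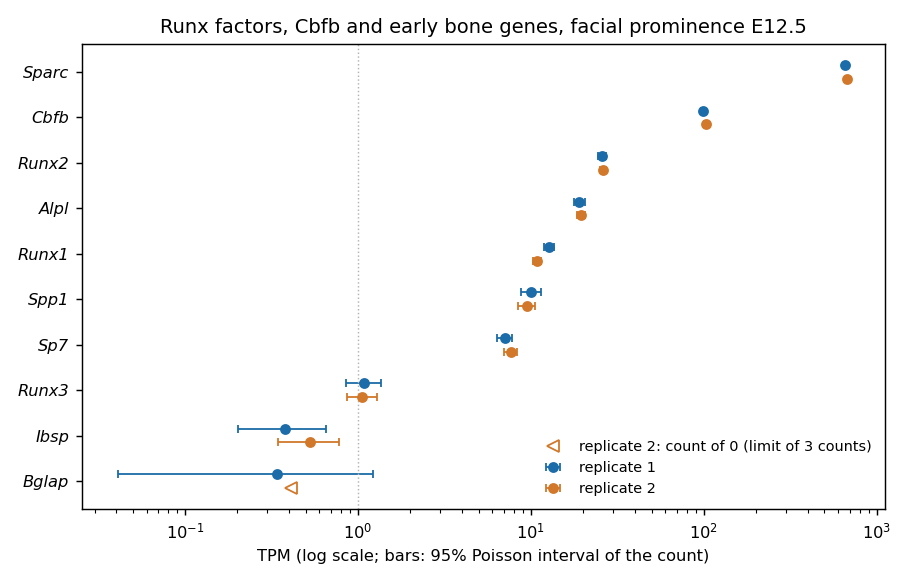
TPM of each of the 10 genes in replicate 1 (blue) and replicate 2 (orange) on a log axis, ordered by mean, with bars for the 95% Poisson interval of the count; the dotted line marks 1 TPM. The libraries lie close together from Sparc down to Runx3, and the bars widen for Ibsp and Bglap. The open triangle for Bglap in replicate 2, which had a count of 0, marks the 0.408 TPM of 3 counts.

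The order of mean TPM was Sparc, Cbfb, Runx2, Alpl, Runx1, Spp1, Sp7, Runx3, Ibsp and Bglap. Of the 9 neighbouring pairs in this order, 8 were apart, meaning that their values did not overlap between libraries and the gap of the means was over the sum of the SDs. Ibsp and Bglap were not, with a gap of 0.285 TPM against a summed SD of 0.346 TPM. The closest pair that still counted as apart was Runx1 over Spp1, with a gap of 2.04 TPM against a summed SD of 1.72 TPM. The median over the 10 genes was 10.8 TPM, beside 5.24 TPM over all protein-coding genes, and the 8 of 10 genes with at least 1 TPM in each library stand beside 61.8% of protein-coding genes, or 80.3% of those with at least 3 expected counts in either library.

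The Runx genes used their promoters in different proportions. For Runx2, transcripts that start at the distal promoter P1 had 13.1 TPM in replicate 1 and 13.4 TPM in replicate 2, and those from P2 had 7.85 and 8.35 TPM. P1 therefore made up 62.0 ± 0.66% of the TPM that could be given to either promoter, 62.5% in replicate 1 and 61.5% in replicate 2. A further 18.0 ± 1.44% of Runx2 TPM sat in transcripts whose annotated start is incomplete, and these were put with neither promoter.

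This majority of P1 rests on the division by length. In expected counts the P1 share was 41.4%, with 628 and 775 counts for P1 and 784 and 1245 counts for P2 in replicates 1 and 2. The Runx2 promoters lie 78149 bases apart in mm10. The annotation gives 892 exon bases to P1 transcripts alone, 2480 to P2 transcripts alone and 5433 to both. How many reads fell in each of these stretches was not measured here, and the deposited counts share out reads that match several transcripts.

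Runx1 leaned the other way. Its P1 transcripts had 2.95 and 2.69 TPM and its P2 transcripts 9.4 and 7.94 TPM, which made a P1 share of 24.6 ± 1.0%. In expected counts the share was 29.4%, on the same side. The Runx1 promoters are 128821 bases apart and have 4877 exon bases of P1 alone and 3578 of P2 alone, more than the 3339 they share. Runx3 was close to pure P1, with 1.06 and 1.03 TPM against 0.04 and 0.03 TPM for P2, a P1 share of 96.8 ± 0.57%. That share rests on few reads, 69.8 and 96.7 expected counts for P1 and 1.2 and 1.35 for P2. In the deposited posterior mean TPM, which gives a value to transcripts with 0 counts, it was 52.3%.

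**Figure D2:**
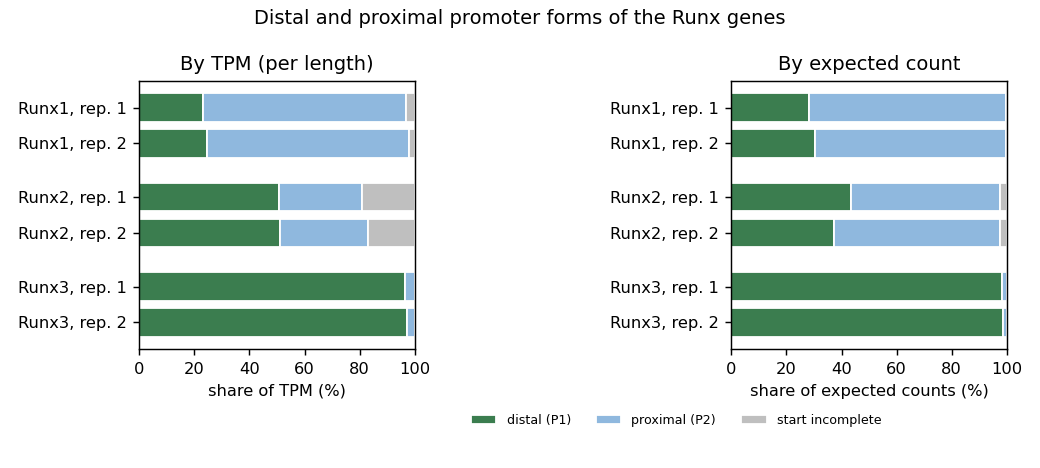
Share of each gene's TPM (left) and of its expected counts (right) in transcripts from P1, from P2 and with an incomplete start, for each library. Runx2 P1 takes 50.6% and 51.1% of all Runx2 TPM and 43.4% and 37.4% of all Runx2 counts in replicates 1 and 2, Runx1 is mostly P2 and Runx3 mostly P1 in both panels.

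Of the 13 annotated Runx2 transcripts, 8 reached 1 TPM or more in both libraries. Highest was the P2 coding transcript Runx2-203, whose coding start is printed above, with 6.45 TPM in replicate 1 and 7.54 TPM in replicate 2. It is 6463 bases long and took 53.5% of Runx2 counts but 26.9% of Runx2 TPM. The P1 level was spread over several forms. Runx2-202, whose start is printed above, had 4.06 and 3.03 TPM, and Runx2-204 had 3.2 and 3.33 TPM. Runx2-207 followed with 1.29 and 1.63 TPM and Runx2-211 with 1.02 TPM in both. A short P1 transcript with a retained intron, Runx2-208, which codes for no protein in the annotation, reached 3.5 and 4.35 TPM from 28.1 and 49.5 counts over 558 bases. Without such noncoding forms the P1 share of Runx2 was 57.1%.

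The deposited posterior SD shows how soft the split is between forms that share exons. For Runx2-202 it was 72.7 counts around 411 in replicate 1 and 70.9 around 435 in replicate 2. The start-incomplete Runx2-205 had 3.22 and 2.15 TPM from 19.2 and 18.2 counts, with lower bounds deposited near 0. The gene total of Runx2, by contrast, had a log2 difference of -0.02, replicate 1 over replicate 2.

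Other genes lie over Runx2. Supt3, a transcription-complex subunit gene on the opposite strand, spans the P1 promoter and had 23.2 and 22.9 TPM, but its annotated exons overlap 0 exon bases of Runx2. The antisense gene Runx2os1 lies over the P2 start with 4.1 and 3.71 TPM, and 519 of its 792 exon bases overlap Runx2 exons. Runx2os2 had 3.26 and 3.14 TPM with no exon overlap, and Runx2os3 was listed at 0. Whether the libraries kept strand is not given in the sources used here, so reads of Runx2os1 and of the Runx2 P2 exon cannot be told apart. The part of this overlap in the promoter shares was not tested.

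For Cbfb, 4 coding transcripts reached 1 TPM or more in both libraries and differ in their coding sequence. Cbfb-202, with 182 codons, took 55.1 ± 1.46% of Cbfb TPM at 53.7 TPM in replicate 1 and 57.8 TPM in replicate 2. Cbfb-203, with 148 codons, had 33.1 and 29.6 TPM, and the longest form, Cbfb-201 with 187 codons, had 7.59 and 10.6 TPM. Cbfb-204, with 155 codons, had 3.2 and 3.88 TPM. The coding ends of the 187-codon and the 182-codon forms are printed from the same base on (plus strand, mm10), with the 31 bases that only Cbfb-202 has in capitals, after which its coding sequence ends earlier. Cbfb-202 is longer in this annotation than in the deposited tables.
Cbfb-201: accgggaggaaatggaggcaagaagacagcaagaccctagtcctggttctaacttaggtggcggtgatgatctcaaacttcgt
Cbfb-202: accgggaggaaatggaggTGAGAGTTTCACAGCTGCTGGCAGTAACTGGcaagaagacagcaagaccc
Cbfb-203 lacks 117 coding bases of Cbfb-201 and Cbfb-204 lacks 96. The order of these 4 forms by TPM was the same in both libraries.

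**Figure D3:**
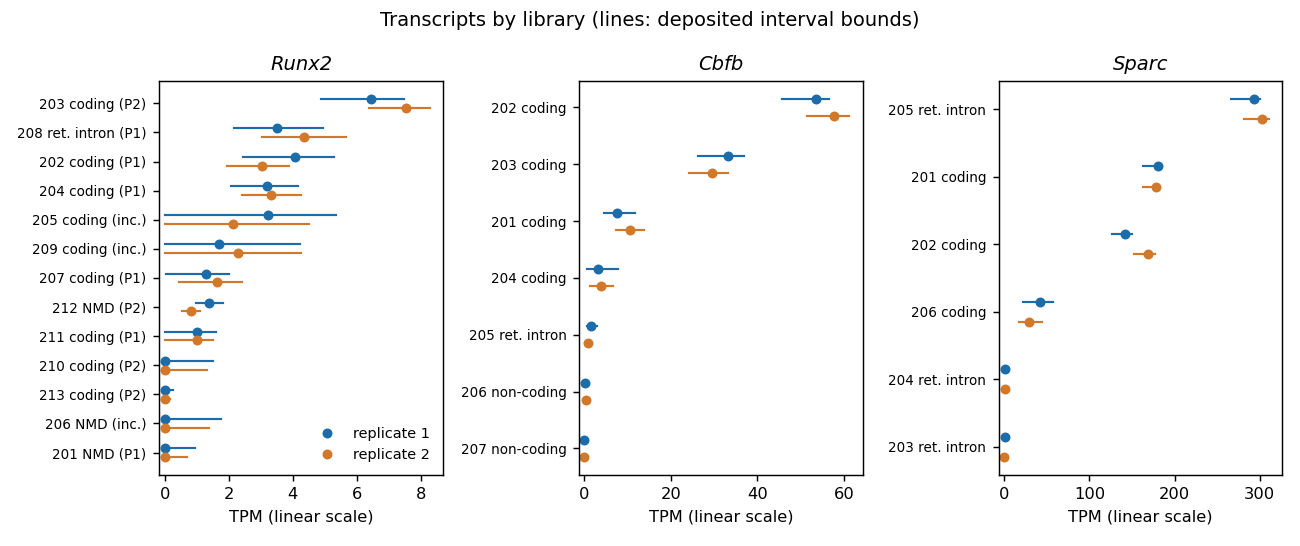
TPM of every annotated transcript of Runx2, Cbfb and Sparc in replicate 1 (blue) and replicate 2 (orange) on linear axes, with lines for the deposited interval bounds; inc. marks an incomplete start and NMD a transcript annotated to nonsense-mediated decay. Runx2 is spread over 8 forms, of which Runx2-203 stands clear of the others in replicate 2, Cbfb-202 and Cbfb-203 lead Cbfb, and a retained-intron form, Sparc-205, stands highest in Sparc.

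Sp7, also called osterix, was present at a lower level than Runx2. Sp7 (chr15:102356606-102367182, minus strand) had 7.06 TPM in replicate 1 and 7.69 TPM in replicate 2, from 346 and 535 expected counts, a mean of 7.38 ± 0.445 TPM above 53.8% of protein-coding genes. It stood 3.53-fold below Runx2 (log2 ratio -1.82 ± 0.07), with -1.87 in replicate 1 and -1.77 in replicate 2. Against Sp3, a broadly expressed zinc finger factor of the same family at 61.9 and 64.3 TPM, it stood 8.56-fold below (-3.10 ± 0.05). All Sp7 reads were given to its only annotated transcript in the tables.

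Alpl encodes tissue-nonspecific alkaline phosphatase, the enzyme that breaks down pyrophosphate and so lets mineral form. Alpl (chr4:137741733-137796384, minus strand) had 19.1 TPM in replicate 1 and 19.6 TPM in replicate 2, from 785 and 1167 expected counts, with 97.7% of its TPM in the full-length coding transcript Alpl-201. It stood 2.62-fold above Sp7 (1.39 ± 0.06), while its ratio to Runx2 was within the threshold at -0.43 ± 0.01. Enpp1, which makes the pyrophosphate that Alpl removes, had 1.32 and 1.59 TPM, so Alpl stood 13.3-fold above it (3.74 ± 0.17). Ank, which exports pyrophosphate, had 7.36 and 7.97 TPM, and Phospho1, a phosphatase of mineralizing matrix vesicles, was not detected, with 0 counts in both libraries.

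Spp1, Ibsp and 3 related genes of mineralized tissue, Dspp, Dmp1 and Mepe, lie in a row on chromosome 5 within 270 kb (chr5:104170712-104441050, plus strand). They encode acidic secreted phosphoproteins of bone and dentin. Spp1, or osteopontin (chr5:104435118-104441050), had 10.0 TPM in replicate 1 and 9.48 TPM in replicate 2, from 230 and 308 expected counts. Ibsp, or bone sialoprotein (chr5:104299171-104311469), had 0.38 and 0.53 TPM from 13 and 26 counts, whose 95% Poisson intervals ran from 6.92 to 22.2 and from 17.0 to 38.1 counts. Dmp1, a gene of osteocytes and odontoblasts, had 0.28 and 0.36 TPM from 13 and 24 counts. Dspp (2 and 0 counts) and Mepe (0 in both) had under 3 expected counts in each library and are given as not detected.

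Spp1 was thus the one gene of the row above 1 TPM, and stood 21.7-fold above Ibsp (4.44 ± 0.40). Osteopontin is also made by macrophages and other cells, so its level does not mark bone on its own. C1qb, a complement gene of macrophages, had 23.4 and 24.5 TPM, and Spp1 stood 2.45-fold below it (-1.30 ± 0.11), and the ratio lost its call in counts not divided by length (-0.89). Against Sp7 the Spp1 ratio was within the threshold (0.40 ± 0.15). Spp1 reads were all given to the transcript Spp1-201 in the TPM column.

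Bglap, or osteocalcin (chr3:88383501-88384464, minus strand), was not detected. It had 2 expected counts in replicate 1, or 0.34 TPM, and 0 in replicate 2. For its short transcript 3 counts equal 0.504 TPM in replicate 1 and 0.408 TPM in replicate 2. In replicate 2, where the count was 0, 3 counts is the limit that such a count allows. A level under about 0.408 TPM would therefore not be seen in that library. In replicate 1 the 95% Poisson interval of the 2 counts ran from 0.0412 to 1.23 TPM. Counting alone thus leaves Bglap on either side of 1 TPM in that library. Its neighbours in the osteocalcin cluster were at the same floor. Bglap2 had 0 counts in both libraries, Bglap3 had 0 and 3, and the pseudogene Gm6821 had 1.74 and 0. Bglap and Bglap2 coding sequences are 98.6% identical and share 192 of 236 stretches of 50 bases, and Bglap shares 32 of 236 with Bglap3, so reads of these copies are uncertain one by one. The upstream window of Bglap printed above carries ACCACA, as does that of Spp1, and the motif was not tested against level.

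Sparc, or osteonectin (chr11:55394500-55423183, minus strand), a collagen-binding glycoprotein made by bone and by many other mesenchymal cells, was the most abundant of the 10. It had 659 TPM in replicate 1 and 679 TPM in replicate 2, from 15634 and 23360 expected counts, above 99.3% of protein-coding genes. It stood 68.6-fold above Spp1 (6.10 ± 0.09), 34.6-fold above Alpl (5.11 ± 0.01) and 18.2-fold above its relative Sparcl1 (4.19 ± 0.06). Its ratio to Col1a1, the main collagen chain of bone and dermis at 424 and 514 TPM, was within the threshold at 0.52 ± 0.16. The sign of that ratio turns in counts not divided by length (-1.56).

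Much of the Sparc level came from a transcript that codes for no protein in the annotation. Sparc-205, a retained-intron form of 741 bases, had 293 and 302 TPM, or 44.5% of Sparc TPM, but 20.8% of Sparc counts. The coding transcripts together had 364 TPM in replicate 1 and 376 TPM in replicate 2, a mean of 370 ± 8.27 TPM, led by Sparc-201 with 181 and 178 TPM and Sparc-202 with 141 and 169 TPM. On coding transcripts alone Sparc still stood above Cbfb at 101 ± 2.65 TPM. It then lay below the gene level of Col1a1, 424 TPM in replicate 1 and 514 TPM in replicate 2. The Sparc ratios given above use all of its transcripts, with Sparc-205 among them.

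**Figure D4:**
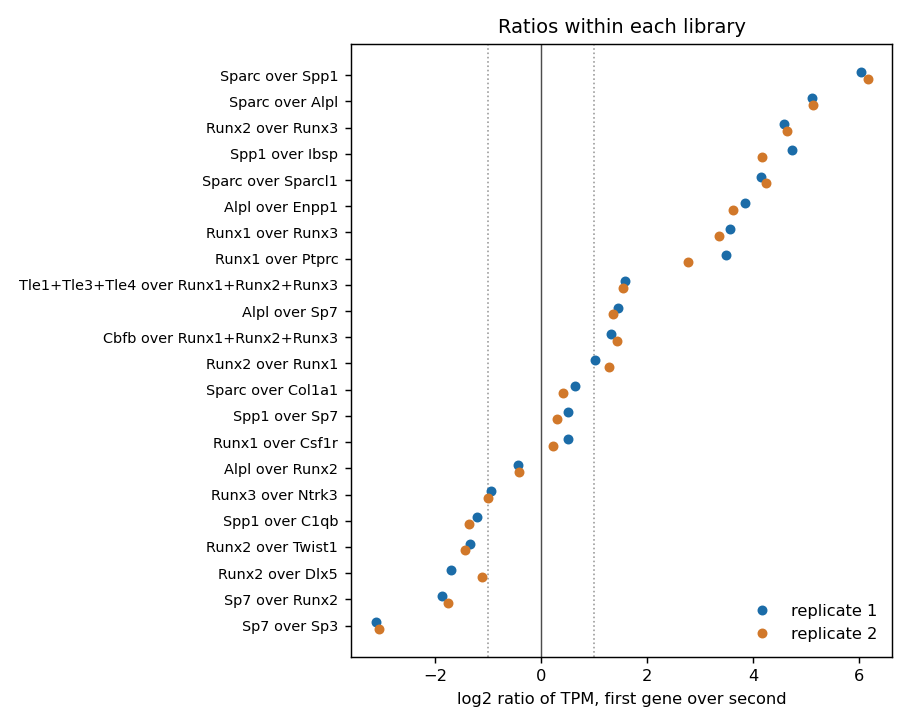
Log2 ratio of TPM, first gene over second, for 22 pairs in replicate 1 (blue) and replicate 2 (orange), with dotted lines at -1 and 1. Both libraries lie beyond the same dotted line for the 17 of these ratios that were called, and the widest distances between libraries are those of Runx1 over Ptprc, Runx2 over Dlx5 and Spp1 over Ibsp.

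Over all 24 ratios, 18 were called, 12 above and 6 below, and no pair had opposite signs in the libraries. Among regulators, Runx2 stood 2.63-fold below Twist1 (-1.39 ± 0.06), whose protein binds Runx2 and holds back its activity, and 2.67-fold below Dlx5 (-1.42 ± 0.41), a homeobox activator of Runx2 in jaw mesenchyme. Dlx5 itself had 84.4 TPM in replicate 1 and 57.1 TPM in replicate 2, and both of these ratios fell short of the threshold in counts not divided by length (-0.32 for Twist1 and -0.13 for Dlx5). The Groucho co-repressors Tle1, Tle3 and Tle4, which Runx proteins recruit, summed to 118 and 110 TPM, 2.94-fold above the summed Runx factors (1.55 ± 0.03).

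The wider set of Runx partners, co-repressors and co-regulators was present throughout. In both libraries all 26 measured genes of that list had at least 1 TPM, beside the 61.8% and 80.3% of protein-coding genes given above, with a median of 32.8 TPM. The highest were Stub1, a ubiquitin ligase that targets Runx proteins (199 ± 3.37 TPM), Yap1 (55.3 ± 0.856), Wdr5 (55.2 ± 0.0778) and Tle2 (54.0 ± 7.09). The lowest were Cbfa2t3 (4.25 ± 0.0141 TPM) and Hivep3 (2.52 ± 0.0919 TPM), an adaptor in Runx2 degradation.

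Regulators acting before or on Runx2 and Sp7 gave 39 of 40 genes (97.5%) at 1 TPM or more, with a median of 26.1 TPM. This share stands beside the 61.8% and 80.3% of protein-coding genes given above. Ctnnb1, the Wnt effector beta-catenin, led with 546 ± 9.53 TPM, followed by the BMP targets Id3 (511 ± 5.3 TPM) and Id1 (140 ± 1.18 TPM) and the homeobox gene Msx1 (331 ± 7.67 TPM). Pparg, the fat cell regulator, was the lowest at 0.42 ± 0.141 TPM, and Fosl2 stood next to it at 1.66 ± 0.12 TPM. The 26 genes of jaw and skull bone primordia were all at 1 TPM or more, beside the same 61.8% and 80.3%, with a median of 24.7 TPM.

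Of 43 other bone matrix and mineral genes, 33 (76.7%) reached 1 TPM in both libraries, between the 61.8% and 80.3% of protein-coding genes given above. The median of this list was 31.8 TPM. Serpinh1, the collagen chaperone, had 1072 ± 4.31 TPM, Col1a2 534 ± 37.1 TPM, Col1a1 469 ± 63.4 TPM and the adhesion gene Cdh11 215 ± 11.3 TPM. At the low end, Sost, the osteocyte Wnt inhibitor, had 0.1 ± 0.0283 TPM, Phex 0.505 ± 0.276 TPM, and Dspp, Mepe, Phospho1 and Bglap2 were not detected. Ifitm5, a membrane protein of osteoblasts, was present at 3.71 ± 0.191 TPM.

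**Figure D5:**
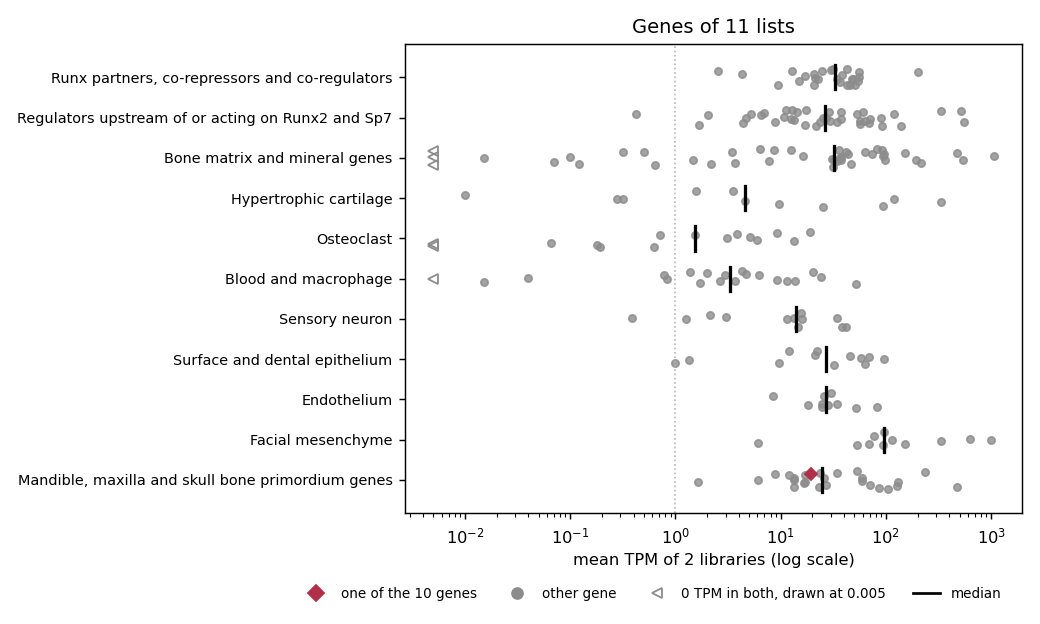
Mean TPM of each gene in 11 lists on a log axis, with a black line at the median of each list, the dotted line at 1 TPM and open triangles for genes at 0 in both libraries. The Runx partners lie between 2.52 and 199 TPM, the bone matrix list runs from 0 to 1072 TPM, and the osteoclast list has the lowest median, 1.53 TPM; the diamond is Alpl.

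Several members are also made outside bone, so markers of the other cells in the tissue were read beside them. The osteoblast markers Runx2, Sp7, Alpl, Ibsp, Spp1, Bglap and Col1a1 had 5 of 7 at 1 TPM or more and had sums of 487 TPM (replicate 1) and 577 TPM (replicate 2), most of it Col1a1. Facial mesenchyme markers (Prrx1, Pdgfra, Msx1), the check on the labelled tissue, had 3 of 3 present and summed to 587 and 567 TPM.

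For Runx1 and Spp1, macrophages and other blood cells were among the other cells considered. All 6 macrophage and blood markers were at 1 TPM or more, with sums of 54.6 and 55.2 TPM and means from 1.36 TPM for Ptprc to 23.9 TPM for C1qb. Runx1 stood 8.78-fold above Ptprc, the pan-leukocyte gene (3.13 ± 0.51), with 3.49 in replicate 1 and 2.77 in replicate 2, and its ratio to the macrophage receptor gene Csf1r was within the threshold (0.36 ± 0.22). Of the wider blood and macrophage list, 15 of 20 genes (75.0%) reached 1 TPM, between the 2 shares of protein-coding genes given above, led by Cd34 at 52.4 ± 0.113 TPM, and the T-cell gene Cd3e was not detected. The part of blood cells in the Runx1 and Spp1 levels was not tested.

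Osteoclast markers had 3 of 4 at 1 TPM or more and summed to 26.3 and 30.2 TPM. Ctsk gave most of it with 16.9 and 21.4 TPM, while Calcr had 0.15 and 0.23 TPM. In the longer osteoclast list 8 of 15 genes (53.3%) reached 1 TPM, a share under that of all protein-coding genes, and the fusion gene Dcstamp and the proton pump gene Atp6v0d2 had 0 counts in both libraries. Hypertrophic cartilage, which also uses Runx2 and Runx3, had 0 of its 3 markers at 1 TPM. Col10a1 had 0.32 and 0.24 TPM, Ihh 0.14 and 0.49 TPM, and Mmp13 was not detected. In the wider list of cartilage genes around that stage 8 of 11 (72.7%) reached 1 TPM, also between those shares, with a median of 4.6 TPM.

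For Runx3 and again Runx1, sensory neurons, in which the pair marks different classes, were also considered. The neuronal transcription factor genes Isl1 and Pou4f1 had 46.0 and 36.9 TPM and 16.1 and 13.1 TPM in replicates 1 and 2. Ntrk3, the receptor gene of the neurons that need Runx3, had 2.11 and 2.13 TPM, and the Runx3 ratio to it was just within the threshold (-0.98 ± 0.04). In the wider sensory neuron list 11 of 12 genes (91.7%) reached 1 TPM, beside the 61.8% and 80.3% of protein-coding genes given above. The median of that list was 14.0 TPM. The part of neurons in the Runx1 and Runx3 levels was not tested.

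The libraries differed little at these genes. Replicate 1 held 27890681 expected counts in all and replicate 2 held 39969716, so replicate 2 carries the smaller counting error. Of 9111 protein-coding genes with a mean of 10 TPM or more, 11 (0.121%) differed by over 1 on the log2 scale with a pseudocount of 1 TPM, and 0 of the 5 members in that range did. Members under 10 TPM differed by at most 0.42, for Bglap, which had 2 counts in all. The log2 difference of replicate 1 over replicate 2 was -0.11 for Sp7, -0.15 for Ibsp and 0.08 for Spp1.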

How the data were processed

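Both libraries came with 1 table of genes and 1 of transcripts. The deposited expected count is an estimated number of reads, with reads that match several features shared out, per the file headers. The deposited TPM divides it by effective length and scales each library to the same total. Deposited posterior mean TPM and FPKM values served as alternatives. The deposited isoform percent was not used, since shares were recomputed from TPM. Build mm10 and GENCODE M4 are per the notes deposited with the tables; aligner and quantifier: not given in the sources used here. RNA above a size limit was kept and spike-ins were added, per the labels. Of 69691 rows, 43346 were mouse gene IDs.

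Names, transcript types and coordinates came from GENCODE M21 (same build, 1-based), in which 55 of 58 member transcripts had the deposited length. Cbfb-202, Sp7-201 and Runx1-205 did not. Promoters were grouped as P1 or P2 by start; windows came from a RefSeq table (GRCm38.p6). Members, 11 lists and 24 pairs were chosen with earlier results of these data known. The text names genes from among the 4 highest and 2 lowest detected of each list, those not detected, and genes of the pairs; some others (Phex, Ifitm5, Ank, Dmp1, Calcr) were named after their values were seen. Some listed genes and 2 of the pairs are not reported here by name. A gene under 3 expected counts in both libraries is not detected. The counting of library differences was checked on simulated counts with known changes. Python 3.11.15, pandas 2.3.3, scipy 1.17.1, Biopython 1.88 and edgeR 4.0.16 (TMM and RLE factors on rounded expected counts) were used. Alternatives were other columns, no division by length, other pseudocounts and minimums, and each library alone.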

Additional observations from a re-analysis of the deposited data

How the results depend on the processing

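No paired analysis was possible because the series holds 1 group and no test between groups was made. Of 192 ratio values under other settings, 6 lost the call, 2 gained it, and 9 that were not called moved by over 1 SD and stayed uncalled; ratios that stayed called could also move. In counts not divided by length, 13 of 24 ratios were called, and Spp1 over Sp7, not called, changed sign (-0.69). Sparc over Col1a1, not called at 0.52 in TPM, also changed sign there and gained its call in the opposite direction (-1.56). The same setting kept 6 of the 10 places in the order. The number of genes that differ between the libraries, 11, was 6 in FPKM, 34 with a minimum mean of 1 TPM and 39 with no minimum, none of them a member; with TMM or RLE factors it was 11.

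The P1 share of Runx1 was 25.9% in posterior mean TPM, 29.4% in expected counts and 29.7% over coding transcripts. That of Runx2 was 60.1%, 41.4% and 57.1% in the same settings. That of Runx3 was 52.3% in posterior mean TPM, where transcripts with 0 counts, such as Runx3-204, receive a value above 0 (0.43 and 0.31 TPM), and 98.5% in counts. Leaving out each replicate gave P1 shares of 61.5% to 62.5% for Runx2, 23.9% to 25.3% for Runx1 and 96.4% to 97.2% for Runx3, 18 to 19 called ratios (Runx3 over Ntrk3 was -1.01 without replicate 1) and 184 to 185 listed genes at 1 TPM. The library difference needs both libraries. Depth limits Ibsp, Bglap, Runx3 and the rarer transcripts.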

Other observations

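Across all 11 lists, which share some genes, 212 genes were measured and 184 (86.8%) had 1 TPM or more in both libraries. The share was 61.8% over all protein-coding genes, or 80.3% over those with at least 3 expected counts in either library. Endothelium genes were present in 10 of 10 cases with a median of 27.1 TPM, led by Egfl7 (82.0 ± 2.21 TPM) and Plvap (51.7 ± 1.45 TPM), and the lowest were Cdh5 (18.3 ± 0.0778 TPM) and Tek (8.53 ± 0.58 TPM). Surface and dental epithelium genes were present in 11 of 12 cases with a median of 27.0 TPM, led by Krt14 (95.5 ± 6.24 TPM) and Krt15 (68.8 ± 11.3 TPM). Shh, a signal of the tooth and face epithelium, had 1.32 and 1.37 TPM, and Edar, a receptor of tooth and hair placodes, 0.87 and 1.13 TPM. Facial mesenchyme genes were present in 11 of 11 cases with a median of 94.9 TPM, led by Col3a1 (1003 ± 1.34 TPM) and Vim (633 ± 4.29 TPM). In the cartilage list Col2a1 had 361 and 313 TPM and Sox9 114 and 123 TPM.

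The 7 windows that hold the Runx motif repeat belong to 7 annotated genes. Those of Runx1, Runx2 and Runx3 are at P1, and another is that of a gene whose window overlaps the Runx3 one on the opposite strand.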
